A study of Mus musculus with 8 samples.

Results

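The 10 genes described here encode the transcription factor NRF2 and enzymes that remove peroxides, superoxide and quinones or supply the thiols these enzymes use. They were taken as the rows whose Ensembl identifier carries the GENCODE M21 symbol Nfe2l2, Nqo1, Srxn1, Txnrd1, Gclc, Gclm, Gsr, Gpx1, Gpx4 or Sod2. All 10 were found among the 54838 genes listed, and all 10 were among the 12405 genes that passed the filter on low counts. The data were read counts per gene from 8 mouse RNA-seq libraries, 4 from cells given DMSO, the vehicle, and 4 from cells given IOX5, a selective inhibitor of the PHD enzymes that hydroxylate the HIF-α proteins and so mark them for degradation. The cells of both groups carried iMLL-AF9, a doxycycline-inducible allele of the MLL-AF9 leukemia fusion, were otherwise labelled wild type, and were labelled leukemic stem cells from bone marrow (the series text calls the cells preleukemic), so that no library came from cells without the fusion. The question was which transcripts changed when PHDs were inhibited in these cells.

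The dose, the time of treatment and the age of the animals were not given in the labels of these libraries, which came from a single model. The labels numbered the samples 1 to 4 in each group without saying that they came from separate cultures or animals. The p-values therefore measure the spread between these samples, which may be technical. Gene counts summed to between 12343770 and 14116054 reads in the DMSO libraries, with a median of 13082522, and to between 11351507 and 12708888 reads in the IOX5 libraries, with a median of 11918860. Levels are given as CPM, counts scaled to a common library total with the trimmed mean of M-values (TMM) factors, and a difference is called where the adjusted p of edgeR's quasi-likelihood test, corrected by Benjamini-Hochberg over all 12405 genes, was below 0.05. IOX5 replicate 2 stood apart in its summed macrophage markers, at 404 CPM against 183 to 216 CPM in the other IOX5 samples, and the counts over the members, over the pathway lists together and over all genes are given with and without it. In bulk samples, fewer cells of a type and less RNA per cell cannot be told apart.

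NRF2 is a leucine zipper factor that KEAP1 holds in the cytosol and delivers to the CUL3 ubiquitin ligase. Oxidants and electrophiles modify KEAP1, whereupon NRF2 accumulates, pairs with a small MAF protein and binds antioxidant response elements (AREs) near its target genes. Its targets include the synthesis and reduction of glutathione, the thioredoxin system, quinone reduction and heme breakdown, whereas Gpx1, Gpx4 and Sod2 act in peroxide and superoxide removal and are also controlled by other factors. PHDs act on HIF-α rather than on NRF2, and HIF binds a different and shorter element.

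Promoter sequence of the members is shown because they share NRF2 as a regulator. RefSeq windows on GRCm38.p6, from 250 bases before to 50 bases after an annotated start, were matched by symbol for 8 of the 10 genes, with Gclc and Gsr not among the entries. The letters searched on both strands were the ARE core as TGACNNNGC or TGAGNNNGC, the AP-1 site TGANTCA, and the HIF element as ACGTG or GCGTG. The stretches below hold the ARE core and AP-1 matches upstream of the start. Capitals mark an ARE core or AP-1 match, and a match on the opposite strand reads as its reverse complement. They lie at chr2:152105354-152105499 (plus strand, Srxn1), chr3:122245411-122245443 (plus strand, Gclm), chr10:82859102-82859134 (plus strand, before 1 of the 3 starts of Txnrd1) and chr2:75704883-75704913 (minus strand, Nfe2l2).
Srxn1: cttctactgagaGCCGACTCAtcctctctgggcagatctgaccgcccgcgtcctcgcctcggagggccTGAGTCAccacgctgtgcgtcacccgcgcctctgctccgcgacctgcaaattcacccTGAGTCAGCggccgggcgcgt
Gclm: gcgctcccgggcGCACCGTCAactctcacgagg
Txnrd1: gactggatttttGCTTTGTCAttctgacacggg
Nfe2l2: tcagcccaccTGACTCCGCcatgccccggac

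The stretch of Srxn1, 146 bases long, held an ARE core on the opposite strand that began 158 bases before the start, an AP-1 match at 102 bases and, at 45 bases, letters that match both the ARE core and AP-1. A further ARE core match of Srxn1 lay 29 bases after the start. Gclm, Txnrd1 and Nfe2l2 each held 1 ARE core match, at 134, 92 and 240 bases before the start. The windows of Nqo1, Gpx1, Gpx4 and Sod2 held neither form of the ARE core, and sequence outside the windows was not searched. Among all 32851 RefSeq windows, 12.4% held the TGAC form, 17.6% the TGAG form, 27.8% either form, 7.81% the AP-1 letters and 43.8% either form of the HIF element. HIF element letters were found for 6 of the 8 matched members, Srxn1, Gclm, Txnrd1, Gpx1, Gpx4 and Sod2, of which Txnrd1 has 3 windows and Gpx4 has 4, and the ARE core for 4 of the 8. Txnrd1 held the ARE core in 1 of its 3 windows. These counts are per gene and the shares are per window, so they cannot be set against each other. A gene with several windows has more places for a match. These matches are letters in a window and not measured binding sites.

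Of the 10 genes, 2 rose with IOX5, Srxn1 and Gpx4, and 0 fell. At an unadjusted p under 0.05, 5 members were higher and 0 lower, beside 8.97% of all genes higher and 11.2% lower. Across all genes tested, 0.774% were called higher and 1.25% lower, 96 and 155 genes, which became 101 and 108 with upper-quartile in place of TMM factors. The log2 fold change was above 0 for 7 of the 10 and below 0 for 3, with a median of 0.19, beside a median of 0.017 over all genes tested. Every IOX5 sample lay above every DMSO sample for 3 members, Nqo1, Srxn1 and Gpx4, as it did for 5.98% of all genes. By sample number, 6 members were higher with IOX5 in all 4 comparisons of samples with the same number, as were 21.3% of all genes, and 1 member, Sod2, was lower in all 4, as were 19.8% of all genes.

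Samples with the same number deviated from their group means together. With the sample number as a block in the edgeR fit, 5 members rose, Nqo1, Srxn1, Gclm, Gpx1 and Gpx4, and 0 fell, with 11.2% of all genes called higher and 9.43% lower. DESeq2 without the block called 3 members higher, Nqo1, Srxn1 and Gpx4, and 3.9% of the 11091 genes for which it gave an adjusted p. Without DMSO replicate 1, 2, 3 or 4 or IOX5 replicate 3, edgeR with no block called 0 members, and over all genes it called 7, 10, 0, 0 and 0 higher and 4, 7, 0, 0 and 0 lower, so that nearly all calls were lost and not those of the members in particular. Without IOX5 replicate 2, it called 1 member, Srxn1, and 53 genes higher and 76 lower in all, and with the block but without sample number 2 of both groups it called 4 members, and 1119 genes higher and 1016 lower in all.

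**Figure D1:**
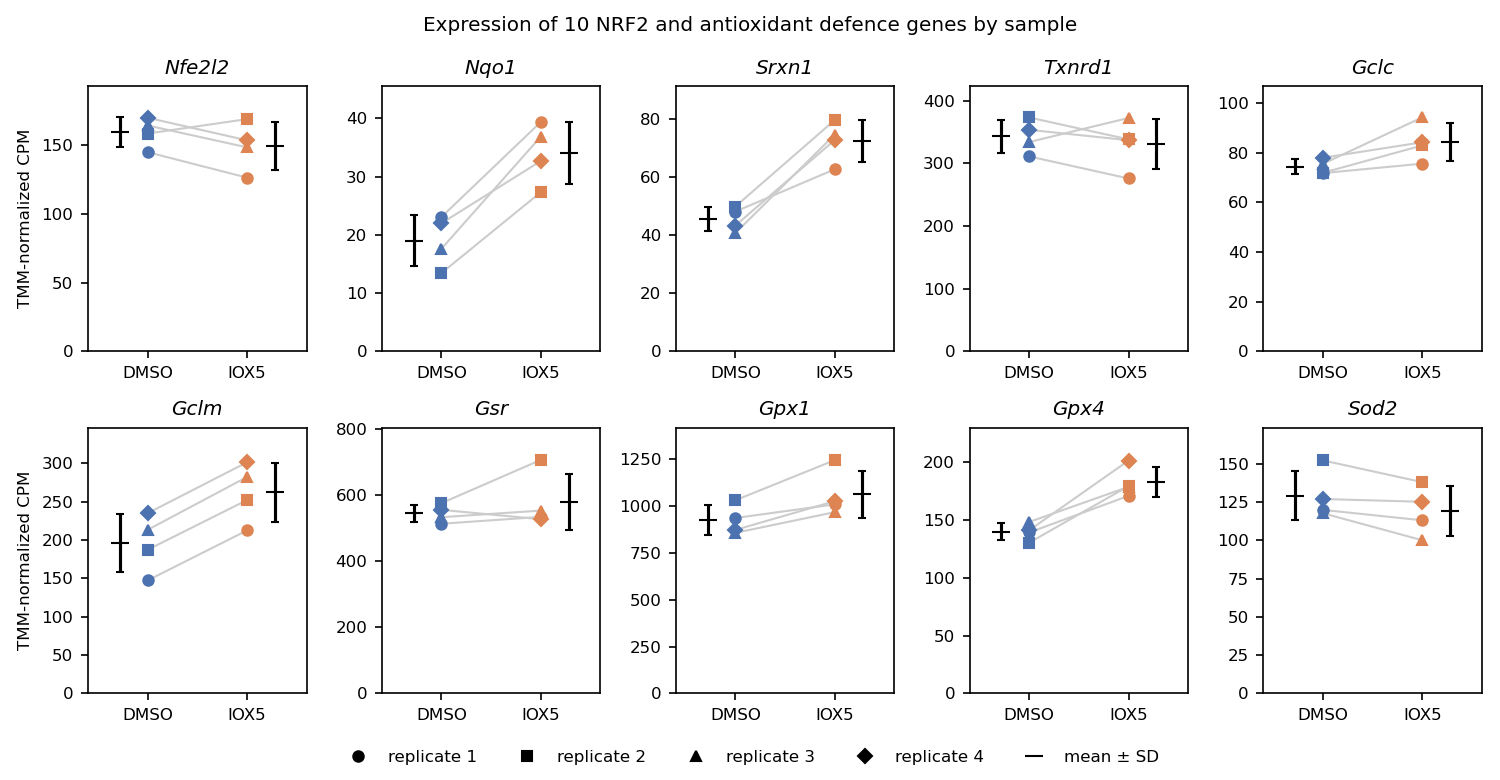
TMM-normalized CPM of each of the 10 genes (vertical axes, each from 0) in the 4 DMSO and the 4 IOX5 samples, with grey lines joining samples of the same number and black bars giving mean ± SD. The IOX5 samples of Nqo1, Srxn1 and Gpx4 lie above all DMSO samples, while those of the other 7 genes overlap with DMSO.

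Nfe2l2, which encodes NRF2 itself (ENSMUSG00000015839, chr2:75675513-75704641, minus strand), did not pass the test. Its level was 145, 158, 164 and 170 CPM in DMSO samples 1 to 4 and 126, 169, 148 and 153 CPM in IOX5 samples 1 to 4. The groups overlapped, with IOX5 sample 1 the lowest and DMSO sample 4 the highest of the 8. Mean levels were 159 ± 10.7 CPM with DMSO and 149 ± 17.6 CPM with IOX5 (SD, n = 4 each). This was a log2 fold change of -0.095 (SE 0.093, 95% interval -0.31 to 0.12; edgeR adjusted p = 0.615). A change of the transcript beyond that interval was not detected, and the protein was not measured in these libraries. Leaving out 1 sample, the log2 fold change of Nfe2l2 ran from -0.16, without IOX5 replicate 2, to -0.022, without IOX5 replicate 1.

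Nqo1 encodes a quinone reductase that uses NADPH or NADH and is among the most used readouts of NRF2 (ENSMUSG00000003849, chr8:107388225-107403206, minus strand). Its level was 23.1, 13.4, 17.6 and 22.0 CPM in DMSO samples 1 to 4 and 39.4, 27.4, 36.9 and 32.7 CPM in IOX5 samples 1 to 4. Sample 2 was the lowest of each group, and the lowest IOX5 sample was above the highest DMSO sample. The mean was 19.0 ± 4.41 CPM with DMSO and 34.1 ± 5.27 CPM with IOX5 (SD, n = 4 each), 1.79-fold, the widest difference among the 10 genes. On the log2 scale this was 0.84 (SE 0.18, 95% interval 0.43 to 1.25), and edgeR's adjusted p of 0.0536 missed the threshold. With the sample number as a block, the edgeR adjusted p was 0.000174 at a log2 fold change of 0.85, and DESeq2 gave an adjusted p of 0.000705. Without the block, voom gave an adjusted p of 0.0132, and edgeR with no filter on low counts gave 0.0473. Over the 8 fits that each left out 1 sample without the block, edgeR's adjusted p was between 0.0556 and 0.154.

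Srxn1 encodes sulfiredoxin, which uses ATP to reduce peroxiredoxins that peroxide has oxidized too far (ENSMUSG00000032802, chr2:152105516-152111376, plus strand). Its level was 48.2, 49.9, 40.8 and 43.4 CPM in DMSO samples 1 to 4 and 62.8, 79.8, 74.7 and 72.9 CPM in IOX5 samples 1 to 4. The groups did not overlap, and IOX5 sample 1 stood lowest of the 4 treated samples. Its mean rose from 45.6 ± 4.23 CPM with DMSO to 72.5 ± 7.12 CPM with IOX5 (SD, n = 4 each). The rise was 0.67 on the log2 scale (SE 0.094, 95% interval 0.46 to 0.88; edgeR adjusted p = 0.0209). Between samples of the same number the log2 difference was 0.38, 0.67, 0.87 and 0.75. The call was lost without DMSO replicate 1, 2, 3 or 4 (edgeR adjusted p = 0.0542, 0.0557, 0.0767 and 0.0921) and without IOX5 replicate 3 (edgeR adjusted p = 0.0705), and was kept without any other sample and in each fit with the block. Its log2 fold change stayed between 0.62 and 0.73 in the fits that left out 1 sample. Of the 8 genes with a promoter window, Srxn1 held the most ARE core and AP-1 matches. The windows of Nqo1 and Gpx4 held 0 of either, while Nfe2l2 and Txnrd1, which did not pass the test, held an ARE core. A link between matches and changes was not tested.

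Txnrd1 encodes cytosolic thioredoxin reductase, a selenoprotein that returns electrons from NADPH to thioredoxin (ENSMUSG00000020250, chr10:82833951-82897712, plus strand). Its level was 311, 373, 334 and 354 CPM in DMSO samples 1 to 4 and 276, 338, 372 and 337 CPM in IOX5 samples 1 to 4. The groups overlapped, and IOX5 was the lower of the samples with the same number in 3 of 4 cases. The difference on the log2 scale was -0.052 (SE 0.097, 95% interval -0.27 to 0.17; edgeR adjusted p = 0.806), and its sign turned to 0.026 without IOX5 replicate 1.

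Glutathione synthesis starts with glutamate-cysteine ligase, whose catalytic subunit is encoded by Gclc (ENSMUSG00000032350, chr9:77754535-77794485, plus strand) and whose modifier subunit is encoded by Gclm (ENSMUSG00000028124, chr3:122245557-122270732, plus strand). Gclm was at 147, 187, 213 and 235 CPM in DMSO samples 1 to 4 and at 213, 252, 282 and 302 CPM in IOX5 samples 1 to 4. The groups overlapped because both ran over a wide range in the same order of sample number, and each IOX5 sample was above the DMSO sample of its own number. Without the block the log2 fold change was 0.42 (SE 0.15, 95% interval 0.072 to 0.77) with an edgeR adjusted p of 0.174, and 0.43 with the sample number as a block, with an edgeR adjusted p of 0.000649. Exons of Gclm overlap those of the pseudogene Gm6061 on the same strand over 244 bases and of Gm17494 on the opposite strand over 296 bases, which held 118 and 21 reads in the 8 samples together.

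Gclc was at 71.8, 71.9, 75.6 and 78.0 CPM in DMSO samples 1 to 4 and at 75.6, 82.9, 94.3 and 84.2 CPM in IOX5 samples 1 to 4. IOX5 was higher at each sample number, though the groups overlapped. Its log2 fold change was 0.18 (SE 0.074, 95% interval 0.013 to 0.35), and the edgeR adjusted p was 0.218 without and 0.0734 with the block. The difference between the subunits was not tested.

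Gsr encodes glutathione reductase, which regenerates reduced glutathione with NADPH (ENSMUSG00000031584, chr8:33652523-33698163, plus strand). Its level was 514, 576, 533 and 556 CPM in DMSO samples 1 to 4 and 534, 707, 553 and 527 CPM in IOX5 samples 1 to 4. IOX5 sample 2 stood above the other 7 samples, which overlapped. The log2 fold change of 0.092 (SE 0.099, 95% interval -0.13 to 0.32; edgeR adjusted p = 0.647) became -0.017 without IOX5 replicate 2.

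Gpx1 and Gpx4 encode selenium-dependent glutathione peroxidases, of which GPX4 reduces lipid hydroperoxides within membranes. Gpx4 (ENSMUSG00000075706, chr10:80047166-80056439, plus strand) was at 139, 130, 148 and 141 CPM in DMSO samples 1 to 4 and at 171, 179, 179 and 201 CPM in IOX5 samples 1 to 4. The lowest IOX5 sample was above the highest DMSO sample. Its mean rose from 140 ± 7.34 CPM with DMSO to 182 ± 13.1 CPM with IOX5 (SD, n = 4 each). The rise was 0.39 on the log2 scale (SE 0.069, 95% interval 0.23 to 0.54; edgeR adjusted p = 0.0346). The call was lost without DMSO replicate 1, 2, 3 or 4 (edgeR adjusted p = 0.0871, 0.0947, 0.0979 and 0.132) and without IOX5 replicate 1, 2 or 3 (edgeR adjusted p = 0.0559, 0.0531 and 0.0856), and was kept without IOX5 replicate 4 and in each fit with the block. Its log2 fold change stayed between 0.33 and 0.42 in the fits that left out 1 sample. GENCODE lists a processed copy of this gene, Gpx4-ps2, and counting that sets aside reads with several positions can lower the count of both.

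Gpx1 (ENSMUSG00000063856, chr9:108338903-108340343, plus strand) was at 936, 1031, 857 and 873 CPM in DMSO samples 1 to 4 and at 1009, 1245, 968 and 1026 CPM in IOX5 samples 1 to 4. Sample 2 was the highest in each group, and each IOX5 sample was above the DMSO sample of its number while the groups overlapped. A log2 fold change of 0.20 was found (SE 0.095, 95% interval -0.014 to 0.41; edgeR adjusted p = 0.279), which was 0.12 without IOX5 replicate 2. With the sample number as a block the edgeR adjusted p was 0.0456, and it lay between 0.0772 and 0.185 when any of the 4 sample numbers was left out.

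Sod2 encodes the manganese superoxide dismutase of the mitochondrial matrix (ENSMUSG00000006818, chr17:13006846-13040063, plus strand). Its level was 120, 152, 118 and 127 CPM in DMSO samples 1 to 4 and 113, 138 and 125 CPM in IOX5 samples 1, 2 and 4, with IOX5 sample 3 the lowest of the 8 (1279 reads against 1448 in DMSO sample 3). It was the member that was lower with IOX5 at all 4 sample numbers, by 0.08, 0.14, 0.23 and 0.02 on the log2 scale, while the groups overlapped. Its log2 fold change was -0.12 (SE 0.12, 95% interval -0.38 to 0.15), with an edgeR adjusted p of 0.619 without and 0.200 with the block. In fits with no block it was -0.030 without DMSO replicate 2, -0.043 without IOX5 replicate 3 and -0.196 without IOX5 replicate 2.

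**Figure D2:**
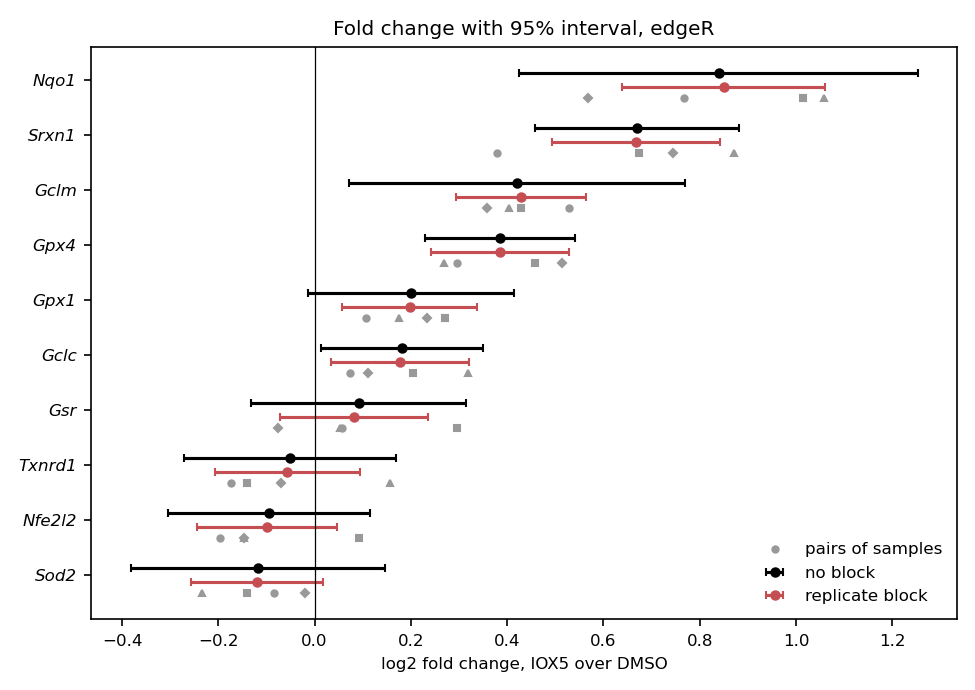
Log2 fold change of IOX5 over DMSO for the 10 genes (horizontal axis) with 95% intervals from edgeR without (black) and with the sample number as a block (red), and the log2 difference between samples of the same number (grey). The estimates without the block run from 0.84 for Nqo1 to -0.12 for Sod2, and the intervals of Nqo1, Srxn1, Gclm, Gpx4 and Gclc lie above 0 in both fits before correction for the number of genes.

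Levels can be compared between genes only per length, here as CPM per kilobase of the union of exons. With DMSO, Gpx1 was highest at 641 ± 54.8 CPM per kb, followed by Gsr at 198 ± 9.80 and Gpx4 at 81.0 ± 4.26 (SD, n = 4), and these 3 did not overlap with each other or with the next gene. Txnrd1 at 48.4 and Nfe2l2 at 42.0 CPM per kb overlapped, and below them stood Gclm at 31.1, Gclc at 19.7 and Srxn1 at 16.2. Srxn1 and Sod2, at 12.9, overlapped, as did Sod2 and Nqo1, at 12.3 CPM per kb, the lowest. The union takes in every annotated exon, used in these cells or not, and the order depends on it. It is 10008 bases for Sod2 and 1553 for Nqo1, whose DMSO means before division by length were 129 and 19.0 CPM. With IOX5, the order began with the same 4 genes, and Nqo1 at 22.0 CPM per kb stood above Sod2 at 11.9.

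**Figure D3:**
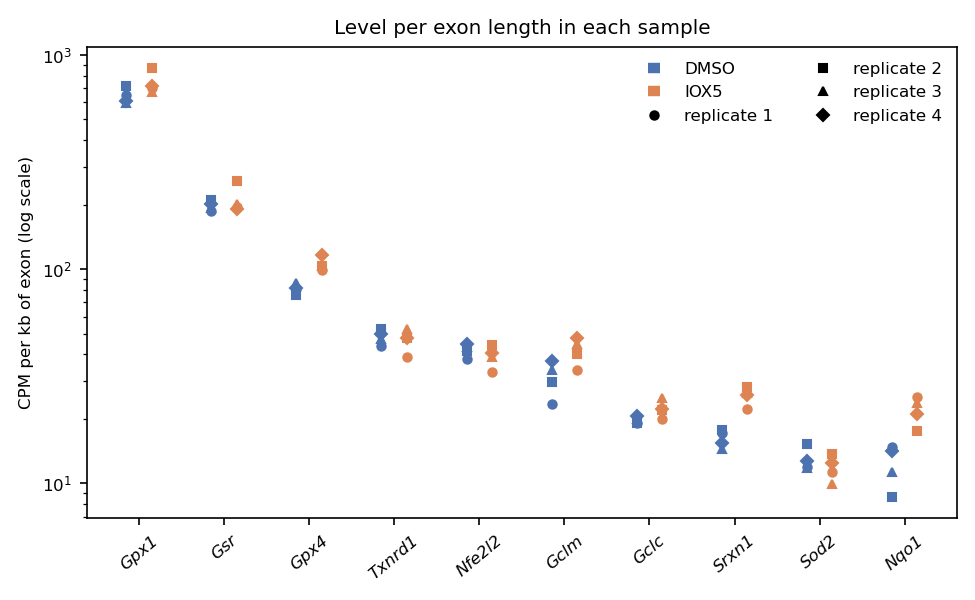
CPM per kilobase of exon (vertical axis, log scale) of each gene in the 4 DMSO (blue) and 4 IOX5 (orange) samples, in the order of the DMSO means, with the marker shape giving the sample number. Gpx1, at 641 CPM per kb with DMSO, stands far above Nqo1 and Sod2, at 12.3 and 12.9.

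The check of PHD inhibition used 10 known HIF target genes, and 6 rose without the block and 10 with it, while 0 fell in either fit. Over all genes tested, 0.774% were called higher without the block and 11.2% with it. The 10 genes were chosen with earlier results of these data known, so their rise is not an independent check of PHD inhibition. Ankrd37, an ankyrin repeat gene, went from 6.05 to 15.8 CPM, a log2 fold change of 1.38 (edgeR adjusted p = 0.0143). Pdk1, the kinase that inhibits pyruvate dehydrogenase, went from 168 to 267 CPM, with a log2 fold change of 0.67 (edgeR adjusted p = 0.0157). Leaving out 1 sample at a time gave edgeR adjusted p of up to 0.0784 for Ankrd37 and 0.0832 for Pdk1. Ankrd37 and Pdk1 are shown because their p was the smallest in this list. The median log2 fold change of the 10 HIF targets was 0.55. Some genes of the redox lists are known targets of HIF as well as of NRF2, Hmox1 among them.

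Around the 10 members, 8 lists of the same pathways held 105 further genes, of which 101 were tested. Of these, 8 rose and 1 fell without the block, and 24 rose and 8 fell with it. Without any 1 of the DMSO samples or without IOX5 replicate 3, 0 list genes were called higher in the fit with no block, where at most 10 of the 12405 genes were, while without IOX5 replicate 1 it was 5, and without IOX5 replicate 2 it was 7 higher and 0 lower. The shares called in all genes are those given above, and the lists were chosen with earlier results of these data known.

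Among the regulators of NRF2, 10 of 11 listed genes were tested, 1 rose and 0 fell, with a median log2 fold change of 0.089. Sqstm1, which encodes the autophagy receptor p62 that binds KEAP1, was at 252, 233, 252 and 270 CPM in DMSO samples 1 to 4 and at 314, 344, 344 and 362 CPM in IOX5 samples 1 to 4. The groups were fully apart, with a log2 fold change of 0.44 (SE 0.066; edgeR adjusted p = 0.0254). Exons of Sqstm1 and of Mrnip on the opposite strand share 580 bases, and Mrnip held 833 reads in the 8 samples. Cul3, the scaffold of the ligase that marks NRF2, was at 215 ± 5.35 CPM with DMSO and 190 ± 2.18 CPM with IOX5 (SD, n = 4 each), with no overlap. Its edgeR adjusted p was 0.0888 without and 0.0575 with the block, while DESeq2 gave an adjusted p of 0.0140 and voom 0.0351. Without the block, the edgeR adjusted p of Cul3 was 0.365 with no filter, and 0.0817 to 0.292 with 1 sample left out. With the block it was 0.0867 to 0.215 with 1 sample number left out. Keap1 did not pass the test at a log2 fold change of 0.10 (edgeR adjusted p = 0.373). With the block, Nfe2, a factor related to NRF2, also rose (edgeR adjusted p = 0.0029) and Nfe2l1 fell (edgeR adjusted p = 0.00959).

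Among 24 other NRF2 target genes, all tested, 3 rose and 0 fell without the block, 9 rose and 0 fell with it, and the median log2 fold change was 0.19. Hmox1, the heme oxygenase that degrades heme, was at 52.6, 58.4, 43.4 and 63.2 CPM in DMSO samples 1 to 4 and at 90.5, 180, 134 and 145 CPM in IOX5 samples 1 to 4. All treated samples were above all control samples, the treated ones being the more widely spread, with a log2 fold change of 1.34 (SE 0.20; edgeR adjusted p = 0.0254). Esd, an S-formylglutathione hydrolase, went from 169 to 223 CPM, a log2 fold change of 0.40 (edgeR adjusted p = 0.0260), and the third gene called was Gstm1, a glutathione S-transferase, with 0.63 (edgeR adjusted p = 0.0409). The ferritin genes Fth1 and Ftl1 passed edgeR's test with the block (edgeR adjusted p = 0.000936 and 0.00426) but not without it (edgeR adjusted p = 0.0839 and 0.223), where DESeq2 gave adjusted p of 0.00623 and 0.115. Slc7a11, the cystine transporter that supplies cysteine for glutathione, had a log2 fold change of 0.12 (edgeR adjusted p = 0.790).

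For glutathione synthesis and use, 22 of 24 listed genes were tested, 1 rose and 0 fell, and the median log2 fold change was 0.24. Glrx, a glutaredoxin that removes glutathione from proteins, went from 82.4 to 109 CPM, a log2 fold change of 0.41 (edgeR adjusted p = 0.0308). Mgst2, a microsomal glutathione S-transferase, had a log2 fold change of 0.82, with an edgeR adjusted p of 0.108 without and 7.2e-05 with the block, while DESeq2 gave 0.0139. With the block, 3 genes of this list rose and 0 fell.

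For thioredoxins and peroxiredoxins, all 18 genes were tested, 2 rose and 0 fell, and with the block 4 rose and 3 fell, with a median log2 fold change of 0.048. Prdx5, a peroxiredoxin of mitochondria and peroxisomes, went from 226 to 318 CPM, a log2 fold change of 0.50 (edgeR adjusted p = 0.0163). Its exons share 409 bases with those of Trmt112 on the opposite strand, which held 4629 reads, so without a stated strand setting reads from the shared stretch cannot be told apart. Msra, which reduces methionine sulfoxide in proteins, went from 32.1 to 47.8 CPM, with a log2 fold change of 0.57 (edgeR adjusted p = 0.0163). The 3 genes that fell with the block were Prdx3, Prdx4 and Nxn.

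Catalase, encoded by Cat, was at 121 CPM with DMSO and 149 CPM with IOX5 with no overlap, a log2 fold change of 0.30, and its edgeR adjusted p was 0.0584 without and 0.00591 with the block, or 0.0714 with the block but without sample number 3. In the list of superoxide dismutases and catalase, 3 of 4 genes were tested and 0 passed edgeR's test without the block. Cat alone was at an unadjusted p under 0.05, and Cat alone was called by DESeq2 (DESeq2 adjusted p = 0.00305). Ccs, the copper chaperone, had a log2 fold change of 0.12 (edgeR adjusted p = 0.551). Of 6 genes of the phagocyte NADPH oxidase, which makes superoxide, 0 passed edgeR's test without the block, 2 at an unadjusted p under 0.05 and 0 by DESeq2, and 3 rose with it. Its cytosolic subunit Ncf1 had a log2 fold change of 0.24, with an edgeR adjusted p of 0.172 without and 0.0301 with the block. Without IOX5 replicate 2 its log2 fold change was 0.15 in the fit with no block, and the call with the block was lost without sample number 1, 2 or 3 (edgeR adjusted p = 0.0752, 0.0835 and 0.160).

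In the list named NADPH supply, 1 of 15 genes rose, Taldo1, and 1 fell, Mthfd2, without the block, with a median log2 fold change of 0.0094. NADPH itself was not measured. With the block 2 rose, Taldo1 and Pgls, and 2 fell, Mthfd2 and Mthfd1. The edgeR adjusted p of Pgls was 0.0506 without and 0.00199 with the block, and that of Mthfd1 was 0.0608 and 0.00850. Taldo1, a transaldolase of the pentose phosphate pathway, went from 399 to 508 CPM, a log2 fold change of 0.35 (edgeR adjusted p = 0.0260), a call lost with no filter on low counts (0.0506), without each DMSO sample (0.0745 to 0.113) and without IOX5 replicate 1 (0.0559) or 3 (0.0708). Mthfd2, a folate enzyme of mitochondria, went from 190 to 142 CPM, a log2 fold change of -0.41 (edgeR adjusted p = 0.0474), and missed the threshold with RLE factors (0.0516), with upper-quartile factors (0.0597), with no filter (0.0536) and without 7 of the 8 samples in turn, the exception being IOX5 replicate 4. All 8 genes of selenoprotein synthesis, on which Txnrd1, Gpx1 and Gpx4 depend, were tested, and 0 passed edgeR's test without the block, 2 at an unadjusted p under 0.05 and 0 by DESeq2, 7 having a log2 fold change below 0 and the median being -0.16. For 3 of the 8, every IOX5 sample lay below every DMSO sample, as for 1029 of all 12405 genes tested. At all 4 sample numbers 5 of the 8 were lower, as were 19.8% of all genes. With the block 2 fell, Secisbp2 (edgeR adjusted p = 0.04997) and Sephs1 (edgeR adjusted p = 0.0411), and both calls were lost when any 1 sample number was left out of that fit.

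**Figure D4:**
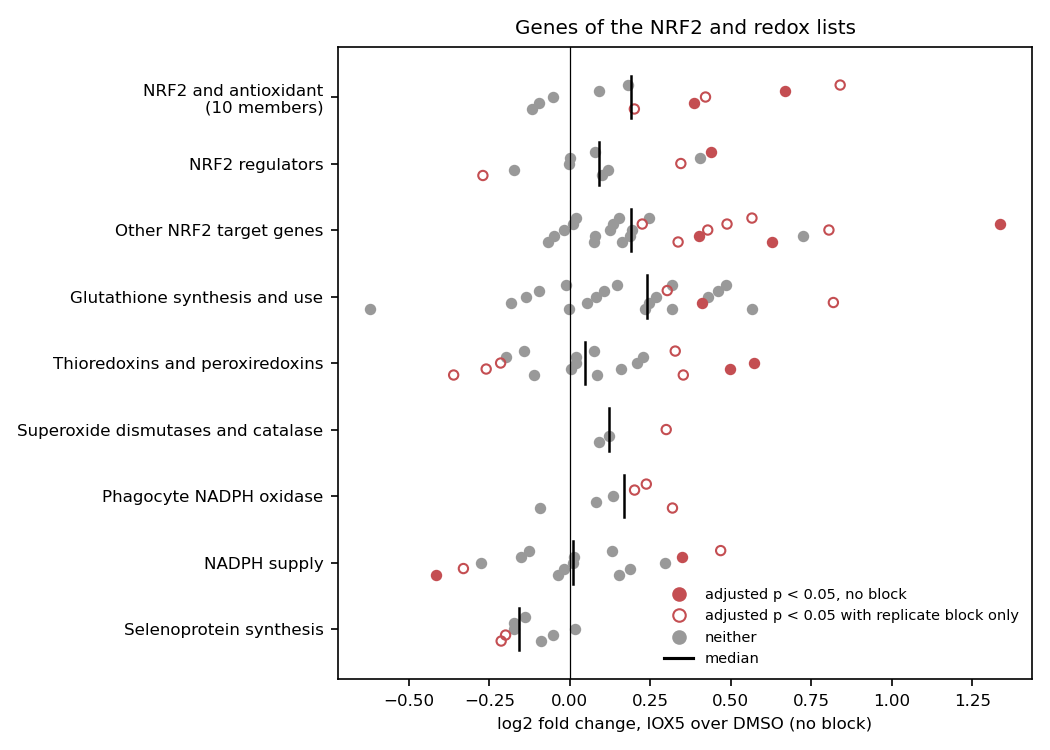
Log2 fold change of IOX5 over DMSO without the block (horizontal axis) for the tested genes of the 10 members and of 8 redox lists (rows), with filled red points for adjusted p below 0.05 without the block, open red points for the block alone, grey points for neither and black bars for the median. Hmox1, at 1.34, lies farthest right, and the median of selenoprotein synthesis, -0.16, is the lowest.

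The labelled cell type and other cell types were read from marker lists. All 8 leukemic progenitor markers were tested, and their summed level was 1520 ± 87.2 CPM with DMSO and 1553 ± 100.4 CPM with IOX5 (SD, n = 4 each), with Ptprc the most abundant. With the block, 3 of these markers rose, Kit, Myb and Flt3, and 1 fell, Mef2c, with log2 fold changes without the block from -0.45 for Mef2c to 0.99 for Flt3. Macrophage markers summed to 142, 158, 116 and 139 CPM in DMSO samples 1 to 4 and to 183, 404, 216 and 188 CPM in IOX5 samples 1 to 4, with no overlap (two-sided exact permutation test p = 0.0286, the smallest that 70 assignments can give, and 0.171 corrected over 6 lists). Of these 8 markers, 5 were tested, Csf1r was the most abundant, at 83.4 and 107 CPM, and 0 of the 8 were at 0 in all samples. Without the block 0 passed edgeR's test, 2 were higher at an unadjusted p under 0.05 and 2 were called higher by DESeq2, and with the block 2 rose, Mrc1 and Adgre1. The part of this difference in the results for the members was not tested.

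Mature granulocyte markers, led by S100a8 and with Retnlg at 0 in all samples, summed to 821, 1385, 623 and 579 CPM in DMSO samples 1 to 4 and to 955, 2132, 813 and 740 CPM in IOX5 samples 1 to 4. Sample 2 was the highest of each group, and the sums overlapped (7 of 8 tested). Erythroid markers, led by Hbb-bt, summed to 18.6 ± 9.62 and 32.3 ± 14.9 CPM, and mast cell and basophil markers, led by Mcpt8, to 454 ± 264 and 663 ± 377 CPM (SD, n = 4 each), the latter high in samples 3 and 4 of both groups. For these 3 lists the two-sided exact permutation p was 0.514, 0.171 and 0.371, and with the block 4 of 7, 2 of 5 and 7 of 7 tested markers rose. Lymphoid markers, led by Cd79a, summed to 0.206 and 0.210 CPM, with 0 of 8 tested and Cd3g, Ms4a1 and Ncr1 among those at 0. Their part in the results for the members was not tested.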

How the data were processed

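Total RNA of 8 samples was poly(A)-selected, prepared with a directional kit and sequenced from a single end by the authors, who trimmed reads with cutadapt 1.18, aligned them with HISAT2 2.2.1 to GRCm38 and counted reads per gene with htseq-count of HTSeq 2.0.1 (versions from the submitters' processing notes). The strand setting and annotation release of counting were not given in the sources used here. The deposited values are raw read counts per gene. Summary lines for unassigned reads, 20.6 to 22.6% of the reads in each table, were left out. Identifiers were matched to GENCODE M21 (54809 of 54838).

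Counts were tested in R 4.3.3 with edgeR 4.0.16 (filterByExpr, TMM factors, quasi-likelihood test, no block, Benjamini-Hochberg adjustment over 12405 genes). The study's methods name DESeq2 for its own calls. Sample deviations from group means correlated at 0.758, 0.744, 0.732 and 0.636 for the numbers 1 to 4, and at 0.685 for DMSO 4 with IOX5 3 and 0.617 for DMSO 3 with IOX5 4, so numbers 3 and 4 were not resolved from each other. The numbers were taken to pair the groups because each same-number correlation was over 0.1, although the labels do not say what they mark. Some pairs of different numbers were over 0.1 too, those given above and DMSO 1 with IOX5 2 at 0.212, so this limit does not single out the same numbers. Where a fit with the number as a block changed a call, its counts or adjusted p are given. Other alternatives were DESeq2 1.42.0, limma's voom (3.58.1) weighting each sample, upper-quartile or RLE factors, other filters, and each sample left out. Scripts were tested on simulated data. No 2 libraries of the same group agreed within sampling noise.

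The members and lists were chosen with earlier results of these data known. The genes named were the 10 members, the 2 genes with the smallest p in each of 9 lists, and the most abundant gene of each marker list. Some of the genes this rule selects are not reported here. Any other gene named was chosen after its values were seen.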

Additional observations from a re-analysis of the deposited data

Results flagged for a closer look

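In groups of 4, a sample far from the other 3 was found in 7 of 80 groups examined, where chance gives about 4. IOX5 replicate 2 was such a sample for Gsr, at 707 CPM against 527 to 553 in the others, for Glrx, at 122 CPM against 104 to 107, and for Ncf1, at 519 CPM against 407 to 422. It was also the sample apart for the summed macrophage markers, at 404 CPM against 183 to 216, and the summed granulocyte markers, at 2132 CPM against 740 to 955. Among DMSO samples, Cul3 was low in replicate 1, at 207 CPM against 217 to 218, and Msra high in replicate 3, at 35.8 CPM against 30.5 to 31.3.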

How the results depend on the processing

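Replicate pairing moved the counts most. With the sample number as a block, 5 members were called higher, 24 pathway list genes higher and 8 lower, and 1394 genes higher and 1170 lower over all. Leaving out each replicate number in that fit gave 4 members each time. Without number 1, 2, 3 or 4, list genes called higher were 19, 17, 15 and 22 and lower 3, 5, 2 and 7, and all genes called higher were 994, 1119, 642 and 1355 and lower 650, 1016, 403 and 1058. Leaving out 1 sample without the block gave 0 to 2 members, 0 to 9 list genes higher and 0 to 2 lower, and 0 to 130 genes higher and 0 to 333 lower; 0 members were called without DMSO replicate 1, 2, 3 or 4 or IOX5 replicate 3. DESeq2 called 13 list genes higher and 4 lower, and 433 and 544 genes; voom called 13 and 5, and 426 and 610 genes. RLE factors, upper-quartile factors and no filter each left 0 list genes called lower, and no filter left 73 genes lower. The members' median log2 fold change stayed between 0.152 and 0.227 in these settings. Leaving out 1 sample, the log2 fold change of Txnrd1 ran from -0.11 to 0.026, turning without IOX5 replicate 1, and that of Gsr from -0.017 to 0.13, turning without IOX5 replicate 2, and the cause of these changes was not tested. The members held between 2651 reads, for Nqo1, and 99193 reads, for Gpx1, in the 8 samples together, and the effect of depth on their calls was not tested.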
